A study of Homo sapiens with 16 samples.

Results

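The comparison described here sets cells exposed to all-trans retinoic acid (ATRA) for 6 h against cells exposed to it for 3 h. Its members were chosen by their labels and not by any measured value: 4 arrays of the 6 h group and 4 of the 3 h group, 8 of the 16 arrays of the series. All arrays measured total RNA of ME180, a human cervical squamous carcinoma cell line, grown in IMDM with fetal bovine serum, with biotin-labelled cRNA hybridised to Illumina bead arrays. The 4 groups of 4 arrays were cells given the DMSO vehicle, for which the labels name no exposure time, and cells given 10 µM ATRA for 1, 3 or 6 h. No vehicle group matched to 3 h or to 6 h is labelled, so time in culture and time with ATRA cannot be told apart in this comparison. Whether replicates came from separate cultures is not stated in the labels, so every p-value measures the spread between arrays that may be technical repeats. ME180 is a single tumour line, and in such bulk RNA fewer cells of a kind and less RNA per cell cannot be told apart.

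All-trans retinoic acid is the acid form of vitamin A. It enters the nucleus with the carrier CRABP2 and binds retinoic acid receptors, which sit with RXR partners on paired half-sites in the DNA, the retinoic acid response elements, and activate nearby genes when the ligand is bound. The best known targets include the enzymes that destroy the ligand, the cytochrome P450 hydroxylases CYP26A1 and CYP26B1, and the reductase DHRS3, which turns retinaldehyde back into retinol. In squamous epithelium retinoids hold back keratinisation, and excess ATRA on skin is an irritant that goes with release of cytokines and ligands of the EGF receptor.

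The sequences below carry the letters behind the names that recur in the results. The promoters of CYP26A1 and TRIM31, a ubiquitin ligase of the tripartite motif family, are shown because both genes are among the most variable at 6 h and both windows hold a paired half-site. The promoter of CCL20, a chemokine that attracts cells carrying the receptor CCR6, is shown because CCL20 had the largest difference among the genes whose arrays did not overlap. Each window runs from 250 bases before to 50 bases after the start of the gene in RefSeq (GRCh38.p14), and capitals mark the motif. The CYP26A1 window is chr10:93073643-93073942 on the plus strand, the TRIM31 window chr6:30113041-30113340 on the minus strand, and the CCL20 window chr2:227813592-227813891 on the plus strand.
CYP26A1: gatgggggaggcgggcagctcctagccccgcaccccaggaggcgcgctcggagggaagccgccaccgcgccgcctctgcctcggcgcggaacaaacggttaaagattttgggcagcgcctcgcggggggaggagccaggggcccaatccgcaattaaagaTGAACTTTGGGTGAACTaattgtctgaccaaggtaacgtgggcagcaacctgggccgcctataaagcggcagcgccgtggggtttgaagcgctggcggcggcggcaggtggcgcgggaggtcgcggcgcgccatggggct
TRIM31: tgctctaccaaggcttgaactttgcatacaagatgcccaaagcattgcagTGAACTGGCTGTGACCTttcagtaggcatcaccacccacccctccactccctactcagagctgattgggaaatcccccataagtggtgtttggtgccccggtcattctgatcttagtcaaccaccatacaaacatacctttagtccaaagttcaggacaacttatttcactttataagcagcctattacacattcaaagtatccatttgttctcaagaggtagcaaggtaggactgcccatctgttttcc
CCL20: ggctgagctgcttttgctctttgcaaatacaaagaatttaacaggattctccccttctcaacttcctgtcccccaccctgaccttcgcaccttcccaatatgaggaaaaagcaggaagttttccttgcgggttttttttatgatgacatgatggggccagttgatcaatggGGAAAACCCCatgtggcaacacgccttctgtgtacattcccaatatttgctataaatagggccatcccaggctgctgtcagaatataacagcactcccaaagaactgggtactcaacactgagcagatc
The retinoid motif searched was a direct repeat of 2 half-sites, each read as AGGTCA, also in the forms AGTTCA, or GGGTCA, or again GGTTCA, separated by NNNNN, on either strand. It was read on the strand opposite to the gene in both promoters, as AGTTCACCCAAAGTTCA from 90 to 74 bases upstream of the CYP26A1 start and as AGGTCACAGCCAGTTCA from 200 to 184 bases upstream of the TRIM31 start. Of 35116 RefSeq promoters of this length, 31 (0.0883%) held the repeat. CYP26A1 has 2 listed starts, and the window shown is the one with the repeat. The capitals in the CCL20 window match the consensus of the transcription factor NF-kappaB, which read GGGGTTTTCC on the opposite strand, 79 to 70 bases upstream. That consensus was common: 3956 of the 35116 promoters (11.3%) held it. The TRIM31 window held it as well, where it is not capitalised. A match in a window describes its letters and does not show that a factor bound there.

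For MIR614, a microRNA gene that also stood out, the mature form in RefSeq lies at chr12:12915882-12915904 on the plus strand, and capitals mark its seed, bases 2 to 8.
hsa-miR-614: gAACGCCUguucuugccaggugg
The array labels polyadenylated RNA, so the MIR614 probe reports a transcript over that gene and not the mature microRNA printed here.

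Levels are given as log2 intensities, on which a step of 1 is a 2-fold step in the brightness of a probe, in the order of replicates 1, 2, 3 and 4. A value under 6 was treated as dim. Over all 16 arrays the deposited values ran from 4.23 to 14.7. The replicate 1 arrays formed a set of their own, as their values stood 1 row too low in 77.6% of the table before they were moved back, and this set entered the model as a block. The cells carried a squamous profile throughout: all 9 of the 9 squamous markers on the array, KRT5, KRT14 and TRIM29 among them, were above 6 in every array. Of the markers of other cells, 7 of 9 for fibroblasts, 7 of 9 for leukocytes, 4 of 6 for endothelium (PECAM1, KDR, CLDN5 and TEK), 3 of 5 for mesothelium and 3 of 5 for adipocytes were under 6 in all 16 arrays.

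Before any difference between the times is read, the 6 h arrays have to be described array by array. In 6 h replicates 2 and 4, several retinoic acid targets stood far below their levels in 6 h replicates 1 and 3. CYP26A1, the main enzyme of retinoic acid breakdown, read 12.95, 4.53, 13.13 and 5.45 at 6 h. The 4 arrays at 3 h read 12.99, 14.02, 12.18 and 13.58, and the vehicle arrays 7.26, 8.58, 8.83 and 7.79. Replicates 1 and 3 at 6 h therefore lay inside the range of the 3 h arrays, while replicates 2 and 4 lay below every vehicle array. The labels give 10 µM ATRA for 6 h for all 4. CYP26A1 in the arrays labelled 6 h replicates 2 and 4 stood neither at the level of replicates 1 and 3 nor within the vehicle range. Whether replicates 2 and 4 were treated and collected as replicates 1 and 3 were is not stated in the labels and was not tested. Every 6 h mean and difference over the 4 arrays therefore holds only under the labels as given. At 1 h CYP26A1 read 10.77, 7.51, 11.81 and 12.14, so replicate 2 was also the lowest of that group. Averaged over 4 arrays, its log2 difference between 6 h and 3 h was -4.18 (SE 1.65, 95% interval -7.70 to -0.67, adjusted p = 0.545). Without 6 h replicates 2 and 4, an alternative added after the data were seen, it was -0.07. The other CYP26A1 probes past the dimness filter had differences of -3.03 and -2.90.

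**Figure D1:**
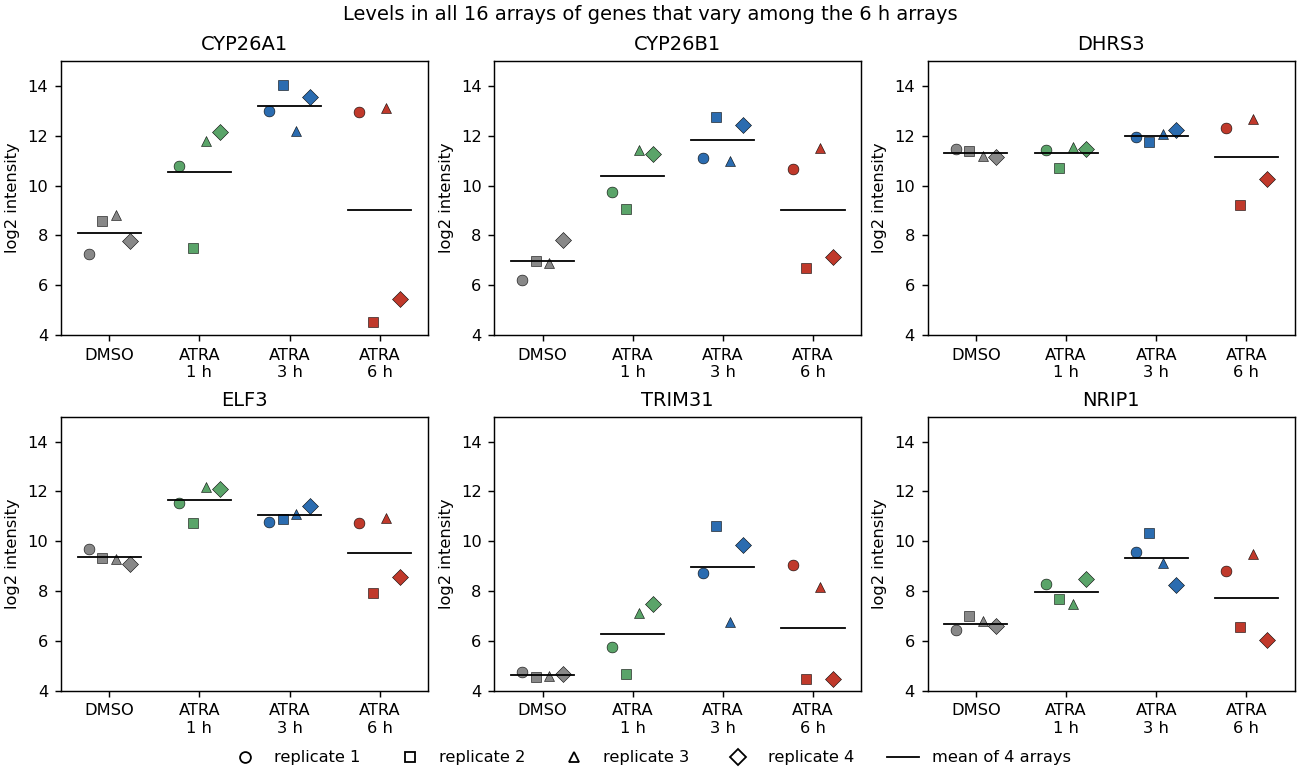
Log2 intensity of CYP26A1, CYP26B1, DHRS3, ELF3, TRIM31 and NRIP1 in all 16 arrays, by group on the x axis, with 1 symbol per replicate number and a line at each group's mean. At 6 h, replicates 2 and 4 of CYP26A1 lie at 4.53 and 5.45 and replicates 1 and 3 at 12.95 and 13.13, and the same 2 arrays are the lowest at 6 h in all 6 panels.

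The range over the 4 arrays at 6 h was therefore set beside the difference between the times. CYP26A1 had the widest range of all genes with a symbol, 8.60, and CYP26B1, the second retinoic acid hydroxylase, followed with 4.81. Next came GCNT3, a glycosyltransferase that branches mucin sugars, with 4.62, and TRIM31 with 4.59. The interferon-induced OAS1 had a range of 4.55, the microRNA gene MIR877 4.43, the interferon-induced SAMD9 4.24 and CCL20 4.24. CEACAM6, an adhesion glycoprotein of epithelia, had 4.21, the neutrophil chemokine CXCL8 4.12, the cytokine IL1B 4.09 and the calcium-binding S100P 4.05. Of these 12 genes, 11 had a promoter in the RefSeq table, and the paired half-site was in 2 of the 11, those of CYP26A1 and TRIM31. A gene was counted if any of its listed promoters held the motif. The shares of all promoters given earlier count single promoters, so the 2 are not alike. The NF-kappaB consensus was also in 2 of the 11, those of CCL20 and TRIM31. The spread was not only a matter of these genes. The median SD over the 4 arrays was 0.318 for vehicle, 0.361 at 1 h, 0.379 at 3 h and 0.415 at 6 h, and 477 genes had an SD over 1 at 6 h against 295 at 3 h. These values include the difference of the replicate 1 set from the other arrays. Over replicates 2 to 4 the medians were 0.181, 0.242, 0.273 and 0.317 in the same order. There 304 genes had an SD over 1 at 6 h, against 176 at 3 h.

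CYP26B1 repeated the pattern at a smaller size. It read 11.11, 12.74, 11.001 and 12.41 at 3 h and 10.68, 6.70, 11.51 and 7.12 at 6 h. Vehicle arrays read 6.22, 6.96, 6.88 and 7.80, so 6 h replicates 2 and 4 stood within the vehicle range. Its difference was -2.81 (SE 0.94, adjusted p = 0.384), and -0.50 without those arrays. DHRS3 read 11.95, 11.77, 12.08 and 12.22 at 3 h and 12.33, 9.24, 12.69 and 10.27 at 6 h. Replicates 1 and 3 at 6 h lay above all 3 h arrays, and replicates 2 and 4 lay below all vehicle arrays, the lowest of which read 11.14. The DHRS3 difference was -0.87 (SE 0.53, adjusted p = 0.878), and it turned to 0.50 without 6 h replicates 2 and 4.

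TRIM31 was dim in every vehicle array, at 4.75, 4.55, 4.59 and 4.67. At 3 h it read 8.71, 10.60, 6.75 and 9.87, and at 6 h 9.05, 4.47, 8.15 and 4.46. It was thus bright in all 4 arrays at 3 h and in replicates 1 and 3 at 6 h, and at the vehicle level in 6 h replicates 2 and 4. The difference was -2.45 (SE 1.02, adjusted p = 0.599), and -0.36 without those arrays. OAS1, a sensor of double-stranded RNA, read 10.48, 9.57, 8.47 and 9.69 at 3 h and 11.30, 6.75, 9.20 and 6.95 at 6 h. Its difference of -1.0 (SE 0.55, adjusted p = 0.833) became 0.37 without 6 h replicates 2 and 4. SAMD9 read 10.49, 10.36, 10.05 and 8.45 at 3 h and 10.67, 8.41, 11.39 and 7.15 at 6 h, with a difference of -0.43 (SE 0.68, adjusted p = 0.991) that became 1.02 without them.

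GCNT3 read 10.91, 10.75, 9.47 and 10.87 at 3 h and 10.99, 6.38, 9.38 and 7.95 at 6 h, against a vehicle mean of 6.97. Its difference was -1.83 (SE 0.61, adjusted p = 0.387). S100P read 9.85, 8.94, 7.75 and 7.0 at 3 h and 10.06, 6.05, 7.81 and 6.01 at 6 h, and its difference of -0.90 (SE 0.50, adjusted p = 0.845) became 0.03 without 6 h replicates 2 and 4. CEACAM6 read 9.82, 7.83, 6.81 and 8.46 at 3 h and 10.11, 5.90, 7.74 and 7.62 at 6 h, where replicate 1 was high at both times and replicate 2 the lowest at 6 h. Its difference was -0.39 (SE 0.44, adjusted p = 0.987), and 0.13 without those arrays. MIR877 went the other way. It read 4.64, 7.55, 6.03 and 6.03 at 3 h and 4.83, 6.16, 4.84 and 9.26 at 6 h, so that replicate 4 alone was far above the rest, and its difference was 0.21 (SE 0.69, adjusted p = 0.998).

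Among 12467 genes and probes tested, 0 (0%) passed an adjusted p of 0.05 between 6 h and 3 h in limma. Before adjustment 874 (7.01%) were below 0.05, of which 408 (3.27%) were higher and 466 (3.74%) lower at 6 h. At an adjusted p below 0.1 there were 19 (0.152%), 5 higher and 14 lower. The count was 0 as well without the array set, with the replicate number as a block, with the 3 h and 6 h arrays alone and under every other scaling tried. Among fits that left out 1 of the 16 arrays, 11 of 16 gave 0 and the highest, without 3 h replicate 3, gave 9. The count without 6 h replicates 2 and 4 was 0, with 1242 genes (9.96%) below 0.05 before adjustment. In 145 genes (1.16%) the 4 arrays at 6 h did not overlap the 4 at 3 h, with 74 (0.594%) higher and 71 (0.57%) lower. The genes below are described by their values, since none passed the test.

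**Figure D2:**
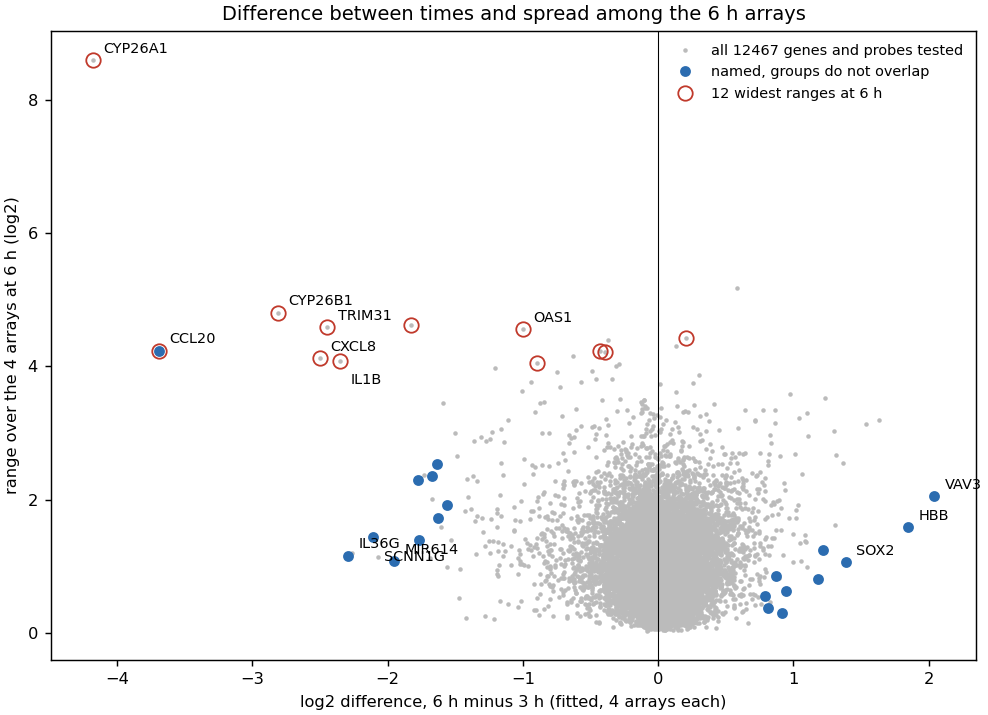
The x axis gives the fitted log2 difference of 6 h minus 3 h for all 12467 genes and probes tested, and the y axis the range over the 4 arrays at 6 h. CYP26A1 combines a difference of -4.18 with a range of 8.60, whereas MIR614, at -1.95, has a range of 1.07 and SOX2, at 1.39, has 1.06.

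Among the genes lower at 6 h whose groups did not overlap, CCL20 had the largest difference. It read 12.70, 13.56, 11.32 and 13.44 at 3 h and 10.31, 6.26, 9.17 and 10.50 at 6 h. The vehicle arrays read 6.18, 5.19, 5.43 and 7.63, so every ATRA array at 3 h lay well above them, and 6 h replicate 2 lay within their range. The difference was -3.69 (SE 0.83, 95% interval -5.47 to -1.91, adjusted p = 0.156), a 12.9-fold lower mean at 6 h, and -3.03 without 6 h replicates 2 and 4. IL36G, an interleukin of the IL-1 family made by keratinocytes, read 11.44, 12.83, 10.90 and 11.97 at 3 h and 9.64, 8.92, 10.08 and 9.32 at 6 h. All 4 arrays at 6 h stood between the vehicle arrays, which reached 8.68, and the 3 h arrays. Its difference was -2.29 (SE 0.37, 95% interval -3.09 to -1.50, adjusted p = 0.0843). Replicates 2 and 4 were the lowest IL36G arrays at 6 h, and over the alternative fits the difference ran from -2.78 to -1.76.

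SCNN1G, the gamma subunit of the epithelial sodium channel, read 8.01, 9.46, 8.99 and 8.95 at 3 h and 6.89, 6.46, 7.53 and 6.10 at 6 h, against 6.53 to 7.26 in the vehicle arrays. The 6 h arrays were spread about the vehicle level. The difference was -2.11 (SE 0.30, 95% interval -2.76 to -1.46, adjusted p = 0.0669), and its second probe past the filter was lower by a similar amount, at -1.86. Replicates 2 and 4 were the lowest SCNN1G arrays at 6 h, and over the alternative fits the difference ran from -2.44 to -1.44. MIR614 read 7.99, 7.82, 7.19 and 7.79 at 3 h and 6.43, 5.46, 5.36 and 5.73 at 6 h. It was dim in every vehicle array and in 3 of the 4 arrays at 6 h. Its difference was -1.95 (SE 0.30, 95% interval -2.59 to -1.31, adjusted p = 0.0669), and -1.87 without 6 h replicates 2 and 4.

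EDN2, one of the endothelin peptides, read 8.32, 8.21, 8.18 and 9.55 at 3 h and 6.24, 7.99, 5.71 and 7.21 at 6 h. Here replicates 1 and 3 were the lowest at 6 h, the reverse of CYP26A1, and the vehicle arrays read 7.66 to 8.44. At 1 h EDN2 had stood higher than at any other time, between 9.90 and 11.04. The difference was -1.78 (SE 0.39, adjusted p = 0.156), and -2.48 without 6 h replicates 2 and 4. ITPKC, a kinase of inositol trisphosphate, had a difference of -1.77 (SE 0.49, adjusted p = 0.246) and ARHGAP20 of -1.67 (SE 0.46, adjusted p = 0.255). The tetraspanin TSPAN1 had -1.64 (SE 0.46, adjusted p = 0.273), the receptor tyrosine phosphatase PTPRH -1.63 (SE 0.32, adjusted p = 0.0955) and SLC20A1, which carries phosphate into cells, -1.56 (SE 0.36, adjusted p = 0.159). In all of these 5 genes replicates 2 and 4 were the lowest at 6 h. Without those arrays the differences shrank to -0.95 for ITPKC, -0.70 for ARHGAP20, -0.67 for TSPAN1, -1.0 for PTPRH and -0.68 for SLC20A1. PTPRH reached 6 only in the 4 arrays at 3 h, in 1 h replicates 3 and 4 and in 6 h replicate 3. Without the 3 h arrays PTPRH would not have entered the test, so its adjusted p-value does not count as support for a fall. Of the genes named here as lower without overlap, 7 had a listed promoter. Counted by gene as before, 0 held the paired half-site, and 3 (CCL20, ITPKC and SLC20A1) held the NF-kappaB consensus.

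The genes higher at 6 h without overlap had smaller differences and, for most, arrays closer to each other. VAV3 read 5.88, 4.83, 6.24 and 4.73 at 3 h and 6.45, 8.35, 8.50 and 6.55 at 6 h. The vehicle arrays read 8.27, 8.36, 8.52 and 8.03 and the 1 h arrays 7.78 to 8.28, so the 3 h arrays were the low ones and 6 h replicates 2 and 3 stood at the vehicle level. The difference was 2.04 (SE 0.45, 95% interval 1.09 to 3.00, adjusted p = 0.153), and 2.10 without 6 h replicates 2 and 4. SOX2, a transcription factor of basal squamous cells, read 4.86, 4.93, 5.07 and 4.58 at 3 h and 5.74, 6.80, 5.83 and 6.61 at 6 h, against 7.10, 7.64, 8.02 and 7.48 in the vehicle arrays. It was dim in all 4 arrays at 3 h and in 2 of the 4 at 6 h, and every 6 h array lay below every vehicle array. The difference was 1.39 (SE 0.23, 95% interval 0.89 to 1.88, adjusted p = 0.0843), and 0.90 for the second SOX2 probe past the filter. Replicates 2 and 4 were the highest SOX2 arrays at 6 h, and over the alternative fits the difference ran from 0.98 to 1.60. With the 3 h arrays set at the dimness limit, the 6 h mean was at least 1.19-fold higher.

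**Figure D3:**
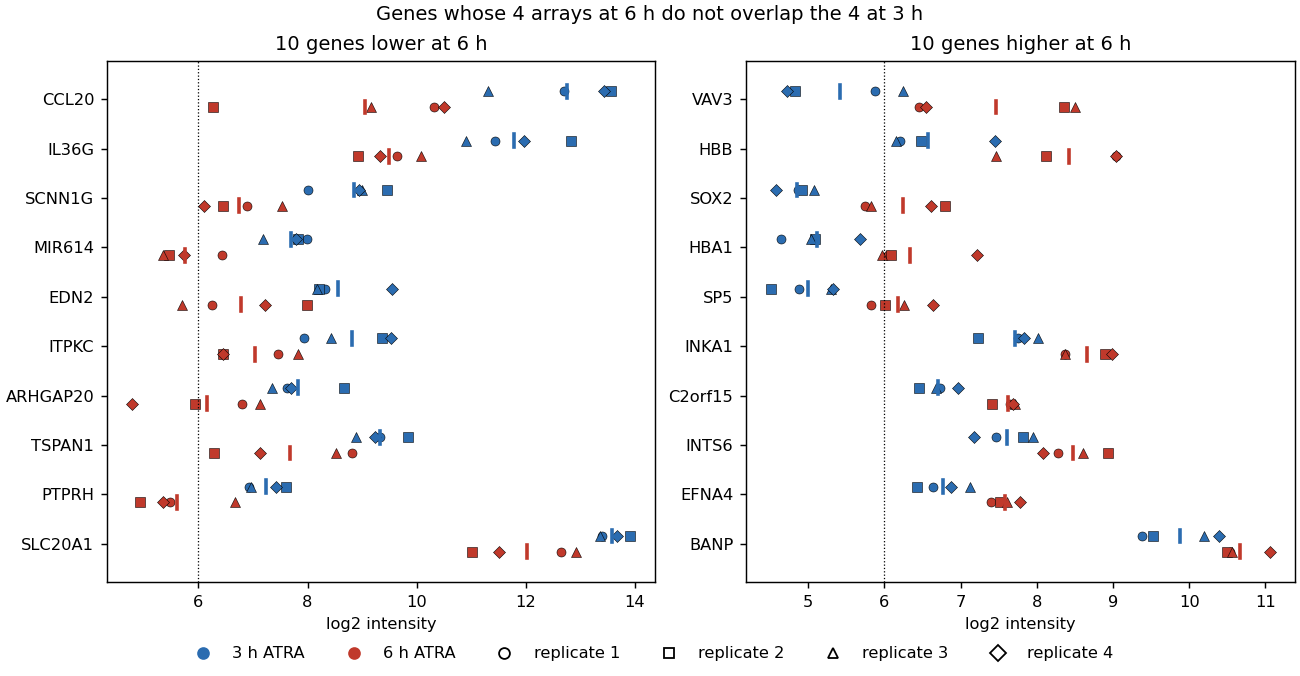
Log2 intensity on the x axis of the 10 genes lower (left) and the 10 genes higher (right) at 6 h with the largest differences among genes whose groups do not overlap, 1 symbol per array, blue for 3 h and red for 6 h, with a bar at each mean and a dotted line at the dimness limit of 6. CCL20 runs from 11.32 to 13.56 at 3 h and from 6.26 to 10.50 at 6 h, while C2orf15 keeps within 6.45 to 6.96 and 7.42 to 7.72.

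The globin genes HBB and HBA1 were also higher. HBB read 6.21, 6.48, 6.15 and 7.45 at 3 h and 9.05, 8.13, 7.46 and 9.04 at 6 h, a difference of 1.85 (SE 0.53, adjusted p = 0.287). HBA1 was dim at 3 h and read 6.05, 6.09, 5.97 and 7.22 at 6 h, a mean at least 1.26-fold above the dimness limit (adjusted p = 0.284). Globin genes have near-identical copies, so the probes may also read their relatives, and 1 h replicate 3 was high in both, at 8.28 for HBB and 6.33 for HBA1. SP5, a zinc finger factor induced by Wnt signalling, was dim at 3 h at 4.88, 4.51, 5.30 and 5.32 and read 5.83, 6.01, 6.26 and 6.63 at 6 h. Against the dimness limit, the 6 h mean of SP5 was at least 1.14-fold higher, with an adjusted p of 0.0955. SP5 reached 6 only in 6 h replicates 2, 3 and 4 and in vehicle replicate 4, at 6.19. HBA1 did so only in 6 h replicates 1, 2 and 4 and in 1 h replicate 3. Without the 6 h arrays neither gene would have entered the test, so their adjusted p-values do not count as support for a rise.

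INKA1, an inhibitor of the kinase PAK4, read 7.76, 7.23, 8.02 and 7.83 at 3 h and 8.37, 8.89, 8.36 and 8.99 at 6 h, with a difference of 0.94 (SE 0.21, adjusted p = 0.153). C2orf15, an uncharacterised open reading frame, read 6.72, 6.45, 6.67 and 6.96 at 3 h and 7.65, 7.42, 7.72 and 7.68 at 6 h, with a difference of 0.91 (SE 0.17, adjusted p = 0.0955). INTS6 of the Integrator complex had a difference of 0.87 (SE 0.24, adjusted p = 0.246). The ephrin EFNA4 had 0.81 (SE 0.17, adjusted p = 0.153) and BANP, a nuclear matrix protein that binds unmethylated CpG motifs, 0.79 (SE 0.21, adjusted p = 0.218). These 5 differences lay between 0.60 and 1.05 without 6 h replicates 2 and 4. Vehicle means were 9.26 for INKA1, 7.42 for C2orf15, 8.38 for INTS6, 7.84 for EFNA4 and 10.61 for BANP, and the 3 h mean was below the vehicle mean in each. Of the genes named here as higher without overlap, 8 had a listed promoter. Counted by gene as before, 0 held the paired half-site and 3 held the NF-kappaB consensus.

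Retinoid metabolism and transport was followed over its whole list of 21 genes, of which 19 were on the array and 11 passed the dimness filter. Of these 11, 8 were lower and 3 higher at 6 h, 0 passed the test, 2 (CYP26A1 and CYP26B1) were below 0.05 before adjustment, and the median difference was -0.21 against 0.01 over all genes. Of all genes, 5843 (46.9%) were lower and 6624 (53.1%) higher. ALDH1A1 and ALDH1A3, which make retinoic acid from retinaldehyde, had differences of -0.60 (SE 0.40) and -0.21 (SE 0.21), and their second probes of -0.40 and -0.31. ALDH1A1 read 6.60, 8.23, 6.78 and 7.33 at 3 h and 6.50, 6.59, 6.53 and 6.91 at 6 h, all below its vehicle mean of 7.74 apart from 3 h replicate 2. ALDH1A3 was bright throughout, at 12.05 to 13.64 at 3 h and 12.32 to 13.27 at 6 h. The retinol dehydrogenases RDH10, RDH11 and RDH12 had differences of 0.03, 0.15 and 0.15, with -0.06 for a second RDH11 probe, and RETSAT, retinol saturase, of -0.32 (SE 0.15).

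Among the carriers, CRABP2, which delivers retinoic acid to its receptor, read 13.64, 13.44, 13.96 and 13.91 at 3 h and 13.82, 13.18, 14.01 and 13.21 at 6 h, with a difference of -0.18 (95% interval -0.58 to 0.21). Replicates 2 and 4 were again the lower ones at 6 h. FABP5, a fatty acid carrier that also binds retinoic acid, had -0.17 (95% interval -0.64 to 0.31).

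Of 15 receptors and coregulators, 12 were on the array and 9 were tested, with 5 lower and 4 higher, a median of -0.11 and 0 past the test. The receptor RARA had a difference of -0.11, RARG of -0.20, and the partners RXRA and RXRB of 0.11 and 0.15. NRIP1, a ligand-dependent repressor that is itself a retinoid target, read 9.57, 10.34, 9.12 and 8.25 at 3 h and 8.81, 6.57, 9.48 and 6.03 at 6 h, against a vehicle mean of 6.70. Its difference of -1.59 (SE 0.62, adjusted p = 0.528) became -0.17 without 6 h replicates 2 and 4. NRIP1 and the further list members named from here on were chosen as examples after their values were seen.

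Of 25 further genes known to be induced by retinoic acid, 20 were on the array and 11 tested, with 6 lower and 5 higher, a median of -0.63, and 0 past the test. Compared array by array with the 3 h array of the same replicate number, the median was 0.27 for replicate 1, -1.98 for replicate 2, 0.26 for replicate 3 and -1.19 for replicate 4. Without 6 h replicates 2 and 4 the median of the list was 0.10. ELF3, an epithelial Ets factor, read 10.78, 10.88, 11.10 and 11.40 at 3 h and 10.74, 7.92, 10.92 and 8.58 at 6 h, with the 2 low arrays below its lowest vehicle array of 9.10. GPRC5A, an orphan receptor known for its induction by retinoic acid, read 11.23, 11.01, 10.80 and 11.65 at 3 h and 11.30, 8.75, 10.23 and 9.77 at 6 h. The interferon regulatory factor IRF1 read 11.56, 11.13, 11.28 and 11.19, then 11.67, 9.16, 11.12 and 10.00. MEIS2 and HOXB4, homeodomain factors of body patterning, were on the other side, with differences of 0.67 (SE 0.26) and 0.46 (SE 0.19). MEIS2 read 8.20, 8.87, 9.26 and 8.72 at 3 h and 8.48, 10.55, 9.55 and 9.16 at 6 h, here with replicate 2 the highest.

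Cytokines and chemokines were tested for 10 of 27 genes on the array, with 7 lower, 3 higher and a median of -0.45. IL1B, the inflammatory interleukin-1 beta, read 11.21, 11.80, 8.93 and 11.52 at 3 h and 10.24, 6.16, 9.51 and 8.15 at 6 h, against 6.39 to 7.51 in vehicle. Its difference was -2.35 (SE 0.80, adjusted p = 0.408), and -1.04 without 6 h replicates 2 and 4. CXCL8 read 9.65, 11.86, 6.66 and 10.73 at 3 h and 7.64, 5.47, 6.19 and 9.59 at 6 h, so replicate 3 was low at both times and replicate 4 high at both. Every replicate number had a lower CXCL8 value at 6 h than at 3 h, and the difference was -2.50 (SE 1.11, adjusted p = 0.661). IL18, stored in epithelial cells, read 13.67 to 13.91 at 3 h and 13.71 to 13.87 at 6 h. The median over the list by replicate number was -0.24, -1.51, -0.05 and -0.76, and without 6 h replicates 2 and 4 it was -0.02.

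Immediate-early genes, the transcription factors and regulators that answer growth factor and stress signals within minutes, had lower means at 6 h throughout the list. Of 31 on the array 27 were tested, all 27 had a lower mean at 6 h (46.9% of all genes did), 9 were below 0.05 before adjustment (3.74% of all genes were, in this direction), and 0 passed the test. The median was -0.47 against 0.01 over all genes, and by replicate number it was -0.53, -0.66, -0.57 and -0.42. In 4 genes (FOSB, FOS, CCN2 and ZFP36) the groups did not overlap, where 71 of all genes (0.57%) had this direction. FOS only just counted, with its lowest 3 h array at 7.0632 and its highest 6 h array at 7.0629. FOS, a subunit of the factor AP-1, read 10.91, 10.84, 10.54 and 11.56 at 1 h. At 3 h it read 7.06, 8.08, 7.36 and 7.81, and at 6 h 6.57, 6.89, 6.34 and 7.06, within the range of the vehicle arrays, which read 5.73, 8.43, 8.69 and 6.69. Its difference was -0.86 (SE 0.45, adjusted p = 0.809).

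The largest differences in that list belonged to FOSL1, another AP-1 subunit, at -1.73 (SE 0.53, adjusted p = 0.328), and to DUSP1, the phosphatase that switches off MAP kinases, at -1.69 (SE 0.39, adjusted p = 0.162). DUSP1 read 13.42 to 13.80 at 1 h, 11.88, 12.59, 10.58 and 12.24 at 3 h, and 10.56, 9.65, 9.61 and 10.73 at 6 h. The small Maf protein MAFF had -1.67 (SE 0.45) and FOSB -1.56 (SE 0.60). ZFP36, which degrades cytokine mRNAs, read 10.07, 11.54, 10.17 and 10.64 at 3 h and 9.51, 9.64, 9.36 and 9.84 at 6 h, with a difference of -1.01 (SE 0.25, adjusted p = 0.202). CCN2, a matricellular growth factor, read 7.52, 8.47, 7.99 and 8.37, then 7.21, 6.82, 6.97 and 7.19. MYC read 11.74, 12.60, 12.01 and 12.16 at 3 h and 11.20, 11.77, 11.27 and 11.44 at 6 h, lower at 6 h at each replicate number, with a difference of -0.70 (SE 0.17, adjusted p = 0.166). Without 6 h replicates 2 and 4 the median of the list was -0.76. The number of the 27 below 0 was lowest, 23, without 6 h replicate 3.

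Feedback inhibitors of MAP kinase signalling, which are induced by the pathway they restrain, also had mostly lower means. Of 13 tested, 10 were lower and 6 of these were below 0.05 before adjustment, where 46.9% and 3.74% of all genes were. The list had a median of -0.48 that was -0.45, -0.53, -0.67 and -0.44 by replicate number and 0 past the test. PHLDA1 read 11.93, 13.15, 12.15 and 12.72 at 3 h and 11.28, 10.78, 11.42 and 11.72 at 6 h, without overlap, a difference of -1.19 (SE 0.25, adjusted p = 0.153). DUSP6, a phosphatase of ERK, read 8.64, 10.20, 8.48 and 9.48, then 7.81, 8.15, 7.78 and 8.96. On the upstream side, 7 of 12 EGF receptor ligands and receptors on the array were tested, 6 of them lower, with a median of -0.12. By replicate number the median was -0.39, 0.17, -0.69 and 0.02, so 2 of the 4 were above 0, and without replicate 3 of every group 3 of the 7 were lower, with a median of 0.04. HBEGF, a ligand of the EGF receptor, read 8.75, 10.37, 9.44 and 10.16 at 3 h and 7.68, 7.50, 8.50 and 8.90 at 6 h, a difference of -1.53 (SE 0.29, adjusted p = 0.0955). TGFA, another ligand, had -0.62 (SE 0.17, adjusted p = 0.255). EGFR itself had -0.20 (SE 0.26), with replicate 1 far below the others at both times.

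**Figure D4:**
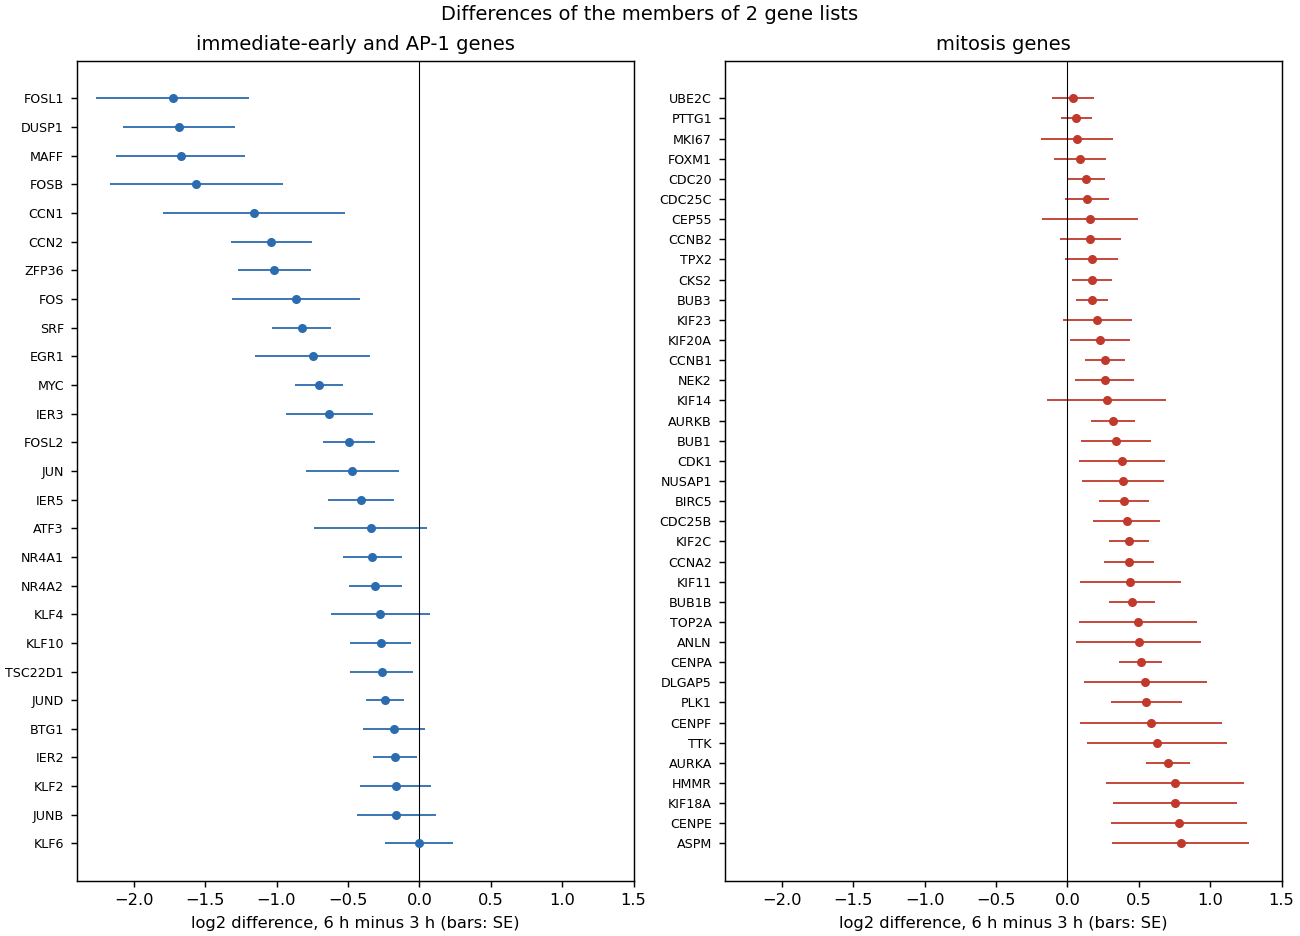
Fitted log2 difference of 6 h minus 3 h on the x axis, with its standard error, for the 27 immediate-early and AP-1 genes tested (left) and the 38 mitosis genes (right). All 27 points on the left lie below 0 and all 38 on the right above it, none past the test.

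Mitosis genes, which build the spindle and drive chromosome separation, had higher means at 6 h throughout the list. All 38 on the array were tested and all 38 had a higher mean at 6 h, with 7 below 0.05 before adjustment and 0 past the test. Over all genes 53.1% had a higher mean and 3.27% were higher and below 0.05. The median was 0.39. By replicate number it was 0.18, 0.73, 0.40 and 0.12. Against the mean of the 3 h arrays of the same array set, the 6 h arrays had medians of 0.18, 0.62, 0.71 and -0.31. In that comparison 6 h replicate 4 was therefore on the lower side. AURKA, the kinase of spindle poles, read 11.01, 11.19, 11.65 and 11.50 at 3 h and 11.84, 12.18, 12.36 and 11.79 at 6 h, without overlap, a difference of 0.70 (SE 0.15, adjusted p = 0.153). KIF2C, a kinesin that takes microtubules apart at kinetochores, read 9.23, 8.98, 9.39 and 9.29, then 9.81, 9.49, 9.77 and 9.54, with a difference of 0.43 (SE 0.14, adjusted p = 0.370). The vehicle means of AURKA and KIF2C were 11.87 and 9.60, close to the 6 h levels. ASPM, a spindle protein, had the largest difference, 0.79 (SE 0.48), with 9.40, 8.95, 9.49 and 7.66 at 3 h and 9.51, 9.97, 10.66 and 8.53 at 6 h, replicate 4 being the lowest at both times. Leaving out replicate 2 of every group put 6 of the 38 below 0, and without 6 h replicates 2 and 4 the median was 0.53. Of 30 S phase genes, which serve the copying of DNA, 18 were higher and 12 lower, with a median of 0.03.

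**Figure D5:**
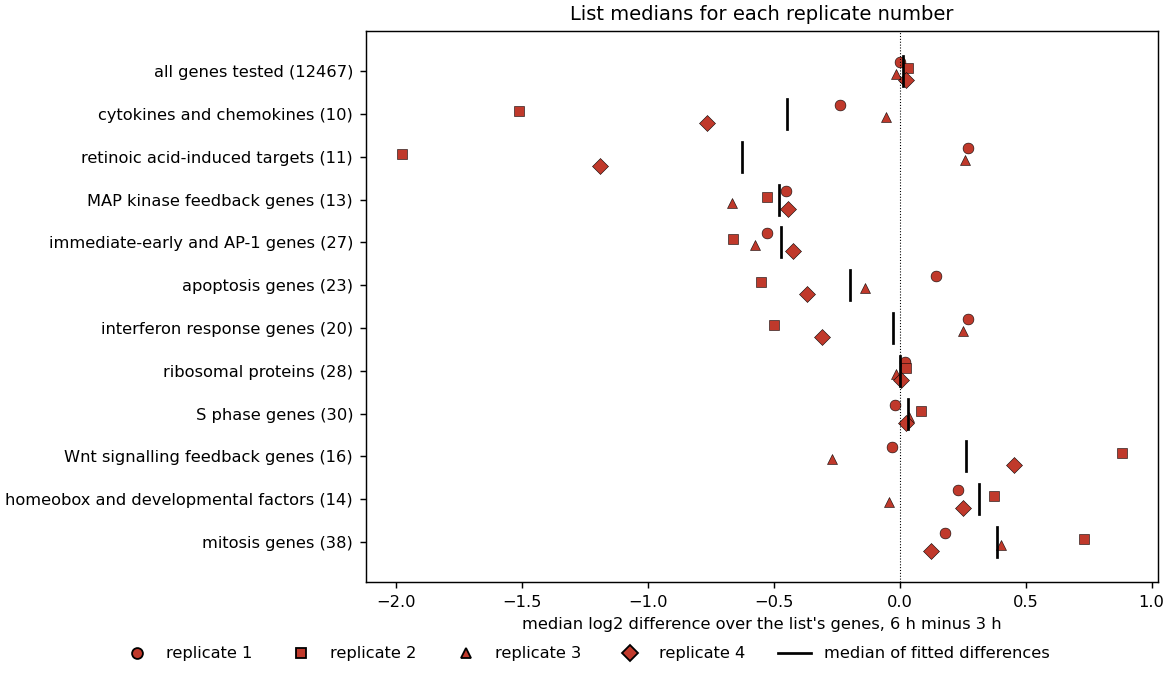
Median log2 difference over the tested genes of each list on the x axis, 1 symbol for each replicate number (the 6 h array minus the 3 h array of that number), and a black line at the median of the fitted differences; the number of genes is in parentheses. The 4 symbols of the immediate-early list lie between -0.66 and -0.42, while those of the retinoic acid-induced targets run from -1.98 to 0.27.

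Of 14 homeobox and developmental factors tested, 9 were higher and 5 lower, a split not far from the 53.1% of all genes that were higher. Of the higher ones 6 were below 0.05 before adjustment, where 3.27% of all genes were, and the median was 0.31. DLX5, a distal-less homeobox factor, read 4.67, 4.65, 5.62 and 5.33 at 3 h and 5.38, 6.85, 5.86 and 6.52 at 6 h, against a vehicle mean of 7.91. DLX3, its relative in the epidermis, read 7.54, 7.89, 9.27 and 8.37, then 7.95, 9.93, 9.36 and 9.36, a difference of 0.88 (SE 0.30, adjusted p = 0.415). The median by replicate number was 0.23, 0.37, -0.04 and 0.25. In the Notch pathway, with a median of 0.00 over 14 genes, HEY2, a Notch target, was lower without overlap, at 7.94, 8.27, 7.70 and 8.45, then 7.26, 7.16, 7.08 and 7.34 (difference -0.88, SE 0.17, adjusted p = 0.0955). LFNG, a glycosyltransferase that modifies Notch, was 1.00 higher (SE 0.28, adjusted p = 0.273).

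The 15 squamous basal and progenitor genes tested had a median of -0.01, with 8 lower and 7 higher. By replicate number the median was -0.40, 0.76, -0.36 and -0.01, so the arrays went opposite ways, and the number lower ran from 4 without 3 h replicate 3 to 14 without replicate 2 of every group. SOX2 was the only member without overlap, where 145 of all genes (1.16%) were. KRT5 had a difference of 0.02, KRT14 of -0.03 and DSG3, a desmosomal cadherin, of -0.32 (SE 0.41). The 26 genes of the cornified envelope and epidermal differentiation had a median of -0.04, with 14 lower and 12 higher. Of them 0 were without overlap, which is near the 1.16% of all genes. The late differentiation gene LCE3D had the largest value there, 0.96 (SE 0.85), with 3 h arrays from 7.08 to 10.89. Of 19 adhesion and junction genes 16 were lower, where 46.9% of all genes were, with a median of -0.22. The 9 squamous marker genes had a median of -0.03.

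Markers of other cell types varied among the 6 h arrays in a few cases. The endothelial cadherin CDH5 read 6.90, 8.29, 4.90 and 8.04 at 3 h and 7.36, 4.35, 7.06 and 4.45 at 6 h, again with replicates 2 and 4 the lowest, and was under 5 in every vehicle array. The endothelial von Willebrand factor VWF read 7.48, 6.19, 7.65 and 5.99 at 6 h. The other 4 endothelial markers were under 6 in all 16 arrays. FABP4, an adipocyte fatty acid carrier, read 10.09, 6.63, 7.12 and 8.75 at 6 h, here with replicates 2 and 3 the lowest. ADIPOQ, PLIN1 and CIDEC were under 6 in all arrays. The part of these markers in the differences above was not tested.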

How the data were processed

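The authors deposited 1 log2 intensity per probe and array in the series' value table, already brought to a common distribution; limma appears in the submitters' processing notes without a version or a stated role, and the background correction is not given in the sources used here. The deposited table of non-normalized values served for its row order, and its 32 value and detection columns match no sample label and were not used. In that order the replicate 1 arrays stood 1 row low from row 10570 of 47230; across probes they correlated with the other arrays at r = 0.979 before it, and at 0.325 as deposited and 0.979 once moved after it. By the platform annotation 30113 probes carried 1 symbol, 8 carried several and 17109 were not listed; 0 symbols changed through RefSeq. Genes entered with log2 of at least 6 in at least 4 of 16 arrays, by the probe with the highest mean: 12467 genes and probes from 15271 probes, 9651 with a symbol.

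The lmFit and eBayes steps of limma 3.58.1 (R 4.3.3) were run two-sided, with the 4 groups and the array set (replicate 1 or not) in 1 model over 16 arrays, 11 residual degrees of freedom, and Benjamini-Hochberg adjustment over all 12467, called at 0.05. The fit was tested on simulated data. No 2 arrays were identical. The number of arrays limits the precision. The genes described are the 10 with a symbol and the largest difference in each direction among those without overlap, all tested members of retinoid metabolism, the 12 widest ranges at 6 h, and examples from 35 gene lists; members and lists were chosen with earlier results of these data known. Lists are described by counts and medians, with no test. The deviations of arrays with the same replicate number correlated across genes at 0.842, 0.212, 0.443 and 0.701 between 3 h and 6 h. Each was over 0.1, so the numbers were taken to pair the arrays and a fit with the number as a block was made. The pairing of number 2 is weak: 6 h replicate 2 correlated at 0.580 with 3 h replicate 3, and with the array set in the model the 2 arrays of number 2 correlated at -0.055. Medians by replicate number describe those array pairs. Alternatives covered the blocks, the arrays left out, the filter, the scaling, the row order and the variance model. Dim groups were set at 6 for "at least" folds. Log base 2 was taken because the highest value is 14.7.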

Additional observations from a re-analysis of the deposited data

Results flagged for a closer look

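In 80 groups of 4 arrays examined for the named genes (3 h and 6 h each), 7 held an array whose gap to its nearest neighbour was above Dixon's critical share for 4 values. Chance gives about 1 such group in 20 where the arrays form a single set. The difference of the replicate 1 set was left in these values, so that share does not apply here. At 6 h, replicate 4 stood highest for HBA1, at 7.22 against 6.09 for the next array, and for BANP, at 11.05 against 10.57. Replicate 1 at 6 h was highest for FABP5, at 12.04 against 11.25, and lowest for RETSAT, at 7.89 against 8.61. At 3 h, replicate 4 was highest for EDN2, at 9.55 against 8.32, replicate 1 was lowest for RDH10, at 9.73 against 10.91, and replicate 3 was lowest for GCNT3, at 9.47 against 10.75. In all 4 groups of the series replicate 1 was the highest for FABP5 and the lowest for RETSAT and RDH10. The flags of FABP5, RETSAT and RDH10 therefore do not mark single odd arrays. The split of CYP26A1 at 6 h is not among the 7 groups, since its low values lie in 2 arrays.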

How the results depend on the processing

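The count of 0 genes moved as follows. It was 1 without replicate 1 of every group, 1 without replicate 3 of every group, 1 with the rows as deposited and the replicate 1 arrays left out, 3 with an intensity trend, and 19 at an adjusted p below 0.1. Leaving out 1 array gave 0 to 9 genes: 2 without 1 h replicate 2, 1 without 1 h replicate 4, 9 (2 higher, 7 lower) without 3 h replicate 3, 4 without 6 h replicate 1 and 3 without 6 h replicate 3, the cause of which was not tested. It stayed 0 with the replicate block, with 882 genes below 0.05 before adjustment against 874, so the pairing changed no call; it was also 0 without 6 h replicate 4 (1500 before adjustment). SCNN1G and MIR614 passed in 5 of 35 alternatives each, IL36G in 2, SOX2 and PTPRH in 1 of 34. Over their alternatives the adjusted p ran from 0.0156 to 0.861 for SCNN1G, from 0.0169 to 0.590 for MIR614, from 0.0104 to 0.861 for IL36G, from 0.0379 to 0.861 for SOX2 and from 0.0345 to 1.00 for PTPRH. PTPRH entered the test only through the 3 h arrays, where it is high, so its pass does not count as support. None of the 20 non-overlapping genes changed sign in any of these alternatives. They were chosen for groups without overlap, which largely fixes the sign when arrays are left out, so this does not measure stability. The sign of CRABP2, DHRS3, OAS1, S100P, RDH10, RDH12, MIR877, SAMD9 and CEACAM6 changed in 1 to 6 alternatives. The median of all genes lay between -0.00 and 0.01 under every scaling. A normexp correction from the non-normalized table and a slide or scan block were not run, as neither could be assigned to arrays. Dim genes and the spread at 6 h limit what can be seen.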

Other observations

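Several gene groups were not described above. Clock genes were lower in 9 of 11 tested, where 46.9% of all genes were, with a median of -0.28. BMAL1, a core activator of the clock, read 7.23, 8.33, 7.76 and 8.22 at 3 h and 7.06, 7.29, 7.27 and 7.22 at 6 h (difference -0.67, SE 0.18, adjusted p = 0.218 in limma), and BHLHE40, a repressor of the clock that hypoxia and retinoic acid also induce, read 7.96, 9.54, 9.03 and 9.17, then 8.24, 7.44, 8.46 and 7.49. Heat shock genes were higher in 11 of 14, with a median of 0.20: HSPA1B, an inducible HSP70, read 9.96, 10.48, 10.74 and 11.18, then 10.78, 11.40, 11.11 and 11.64 (adjusted p = 0.162), whereas DNAJB1, its HSP40 partner, had -0.65 (SE 0.24). HSPA1A and HSPA1B are near-identical, so their probes may share signal. Genes of the unfolded protein and integrated stress responses were higher in 17 of 22, with a median of 0.16. Over all genes 53.1% were higher. Ribosomal proteins (28) and oxidative phosphorylation genes (22) had medians of 0.00 and ranges of -0.18 to 0.20 and -0.08 to 0.18.

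Apoptosis genes were lower in 19 of 23, where 46.9% of all genes were, with a median of -0.20. By replicate number the median was 0.14, -0.55, -0.14 and -0.37, so replicate 1 went the other way. CASP9, the initiator caspase of the mitochondrial pathway, read 9.78, 10.17, 9.57 and 9.77 at 3 h and 10.08, 7.18, 9.38 and 7.68 at 6 h, so that replicates 2 and 4 again stood low, and its difference of -1.24 was -0.13 without them. The death ligand TNFSF10 read 9.25, 6.35, 10.18 and 6.15 at 6 h, against 7.68 to 8.65 at 3 h. Interferon response genes had a median of -0.03 over 20 genes, and by replicate number of 0.27, -0.50, 0.25 and -0.31. IFIT2 read 9.66, 8.0, 8.19 and 8.61 at 3 h and 10.19, 6.71, 10.13 and 6.92 at 6 h, and IFIT1 8.38, 7.66, 7.90 and 8.0, then 9.16, 8.37, 9.65 and 7.65. The glycolytic regulator PFKFB3 read 11.22, 12.62, 12.38 and 12.67, then 11.13, 9.85, 12.20 and 10.22, and ID1, which keeps E proteins off DNA, 12.65, 13.34, 13.22 and 13.27, then 13.04, 11.51, 12.98 and 11.78. Tissue factor, F3, which starts coagulation, was lower without overlap, at 10.91, 10.22, 10.25 and 10.89, then 9.94, 9.13, 8.43 and 10.01 (difference -1.19, SE 0.49, adjusted p = 0.584).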
